A study of Homo sapiens with 6 samples.

Results

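Interferon-stimulated antiviral genes are described here across 6 RNA sequencing libraries, 3 labelled GFP and 3 labelled GFP-CCNB1IP1. They are 42 genes named from a list and matched by symbol, out of 53492 genes in the deposited tables, and each of the 42 symbols stood on 1 gene. All 6 libraries carry the label of SH-SY5Y, a human neuroblastoma line. The GFP libraries come from cells transfected with pCS2-eGFP-N, a plasmid for green fluorescent protein alone, and the GFP-CCNB1IP1 libraries from cells transfected with pCS2-eGFP-CCNB1IP1, a plasmid for that protein joined to CCNB1IP1, an E3 ubiquitin ligase. Both groups were transfected, and the labels give no untransfected sample, dose or time after transfection. The values are FPKM, in which a gene's fragments are divided by transcript length and library size, so levels can be compared between genes.

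Type I interferons are secreted proteins that warn neighbouring cells of virus. They bind the receptor chains IFNAR1 and IFNAR2, whose kinases JAK1 and TYK2 phosphorylate STAT2, which works with IRF9 in the factor ISGF3 to switch on interferon-stimulated genes. Many of those genes encode proteins that sense foreign nucleic acid, degrade RNA, block translation or modify proteins, and most cells keep a low tonic level of them without infection.

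The tables hold mouse genes under a label that names a human line: 0 of the 53492 identifiers matched a human gene table, and all values here are those of mouse genes. Mouse Ccnb1ip1 lay between 7.361e-08 and 0.191 FPKM in the 6 libraries, so it does not check the labels if the introduced sequence was human. Sympathoadrenal markers fixed as a list were present, with 14 of 15 reaching 1 FPKM in some library and Phox2a, a transcription factor gene of that lineage, at 99.6 to 115.0 FPKM. The summed level of the 15 markers was 1156 to 1240 FPKM in the GFP libraries and 985 to 1072 with GFP-CCNB1IP1. The labels do not say whether replicates are separate cultures; p-values then reflect the variation among these 6 libraries, which could be technical.

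One library stood apart in markers of another cell type. Summed over 14 leukocyte and myeloid markers, GFP-CCNB1IP1 replicate 2 had 19.6 FPKM, against 0.980 to 1.94 FPKM in the 5 other libraries, and it was the highest library for 9 of the 12 markers above 0 anywhere. Lyz2, the lysozyme gene of macrophages and granulocytes, had 11.1 FPKM there and at most 0.197 elsewhere. Adgre1, which encodes the macrophage antigen F4/80, had 0.665 FPKM there and was listed at 0 in the others, as was Ptprc, the pan-leukocyte CD45 gene, which had 0.111. The deposited intervals imply only 1.64 fragments for Adgre1 and 0.205 for Ptprc in that library, so these values are near the floor. Cd3e, of T cells, was at 0 in that library. Aif1 and Cx3cr1, also on the list, had 0.438 and 0.0164 FPKM there, below 0.451 in GFP replicate 2 and 0.0310 in GFP replicate 3. GFP-CCNB1IP1 replicate 2 was also the shallowest, at 0.743 of the mean depth of the GFP libraries as read from the deposited intervals, against 0.950 to 1.06 for the others. In bulk RNA, more cells of a type and more RNA per cell cannot be told apart. Macrophages can express many interferon-stimulated genes, and the counts over the members and over the related gene lists are also given without this library.

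Across the list, 0 of the 40 members tested passed (limma, adjusted p under 0.05 over 13231 genes), where 0.00756% of all genes tested did. Of the 42 members, 40 had a mean of at least 1 FPKM and were tested; Ifit3b and Epsti1 were below it, and Ifit3 was above it through the GFP-CCNB1IP1 libraries. Of those 40, 36 had a positive log2 fold change and 4 a negative one, where 51.4% of all genes tested were positive. The median over the 40 was 0.15 on the log2(FPKM + 1) scale, a scale that understates the change of low genes, against 0.004 over all genes tested. At an unadjusted p under 0.05, 11 members were higher (27.5%) and 0 lower, against 5.59% and 5.77% of all genes. Every GFP-CCNB1IP1 library was above every GFP library for 13 members (32.5%), against 8.7% of all genes, and the reverse held for 1 member against 8.9%. The members share libraries and regulators, so they are not independent of each other, and no test of the list is given.

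**Figure D1:**
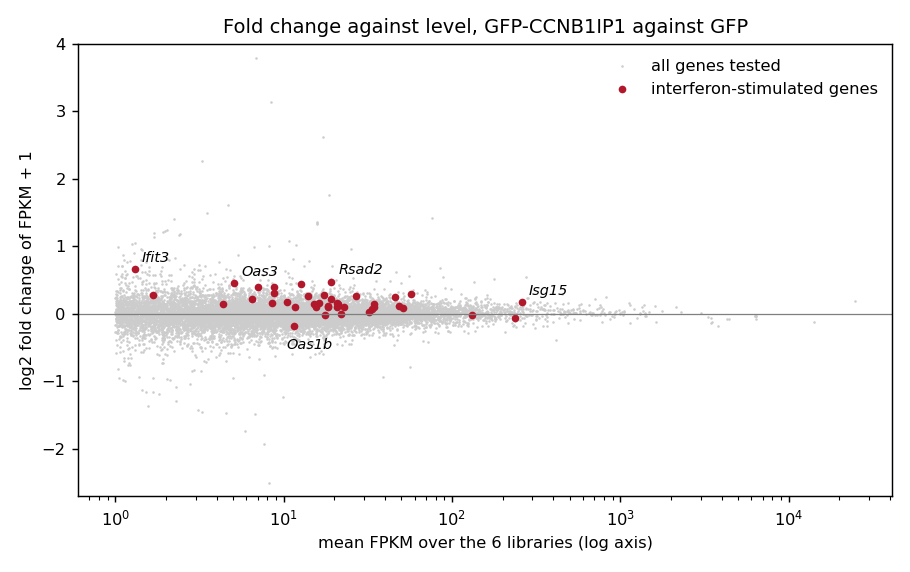
Log2 fold change of FPKM + 1 (GFP-CCNB1IP1 against GFP, 3 libraries each) against mean FPKM over the 6 libraries on a log axis, for the 13231 genes tested (grey) and the 40 interferon-stimulated members tested (red). Most red points, 36 of 40, lie above 0 but within the cloud of grey points at their level.

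**Figure D2:**
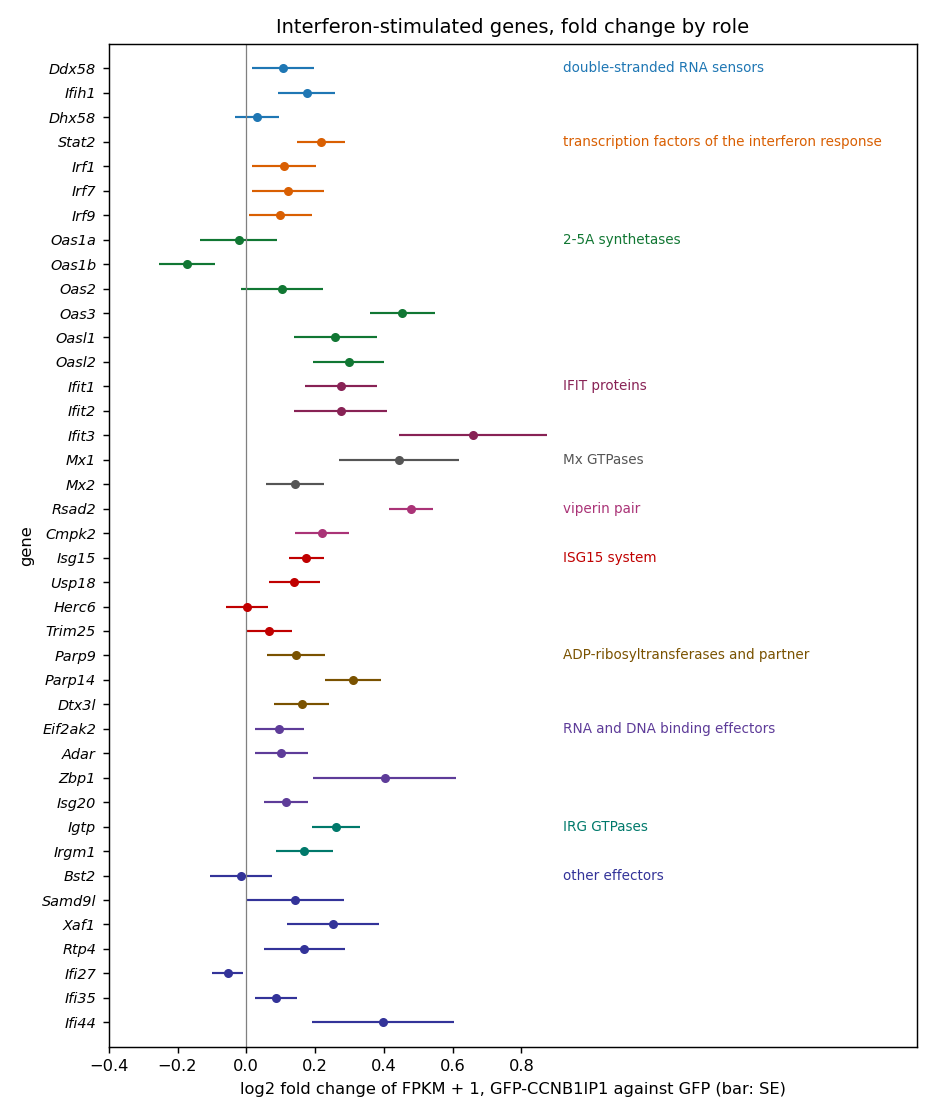
Log2 fold change of FPKM + 1, GFP-CCNB1IP1 against GFP, with its standard error (bar) for the 40 members tested, coloured and labelled by role. Ifit3, Rsad2, Oas3 and Mx1 lie farthest to the right, and Oas1b lies farthest to the left; none passed over all genes.

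The GFP libraries differed among themselves in these genes. Each member's value was set against its own mean over the 6 libraries on the log2(FPKM + 1) scale. The median deviation over the 40 members was 0.03 for GFP replicate 1, -0.19 for GFP replicate 2 and -0.09 for GFP replicate 3. It was 0.07, 0.12 and 0.04 for the GFP-CCNB1IP1 libraries in the order of their numbers. Over all genes tested, the medians stayed between -0.01 and 0.02 in the 6 libraries.

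GFP replicate 2 was the lowest of the 6 libraries for 25 of the 40 members, where this held for 17.0% of all genes tested. GFP replicate 1 was the highest of the GFP libraries for 31 of 40, against 34.2% of all genes. The members were therefore graded within the GFP group: GFP replicate 1 was above GFP replicate 2 for 33 of 40 (49.5% of all genes), by a median of 0.24. The SD of log2(FPKM + 1) was larger in the GFP group for 29 of 40 members, against 52.3% of all genes, with medians over the members of 0.134 in GFP and 0.0682 in GFP-CCNB1IP1.

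Leaving out single libraries moved the counts. Without GFP replicate 1, 26 of 40 members were higher without overlap (14.2% of all genes), 23 were higher at an unadjusted p under 0.05 (5.09% of all genes) and the median was 0.23. Without GFP replicate 2, the counts were 14 (16.4% of all genes) and 7 (6.56% of all genes), and the median was 0.11. Without GFP-CCNB1IP1 replicate 2, the library with macrophage markers, 37 of 40 members had a positive log2 fold change. Of the 40 members, 15 were higher without overlap, where 15.7% of all genes were. The median was 0.16, against 0.15 with all libraries. Members higher at an unadjusted p under 0.05 numbered 6 of 40, where 5.66% of all genes were. With all libraries they numbered 11, and fewer libraries were tested here. In each of these 3 fits 0 members passed. GFP-CCNB1IP1 replicate 2 was the highest of the 6 libraries for 16 of the 40 members, against 13.97% of all genes. Whether its macrophage markers bear on the members was not tested.

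**Figure D3:**
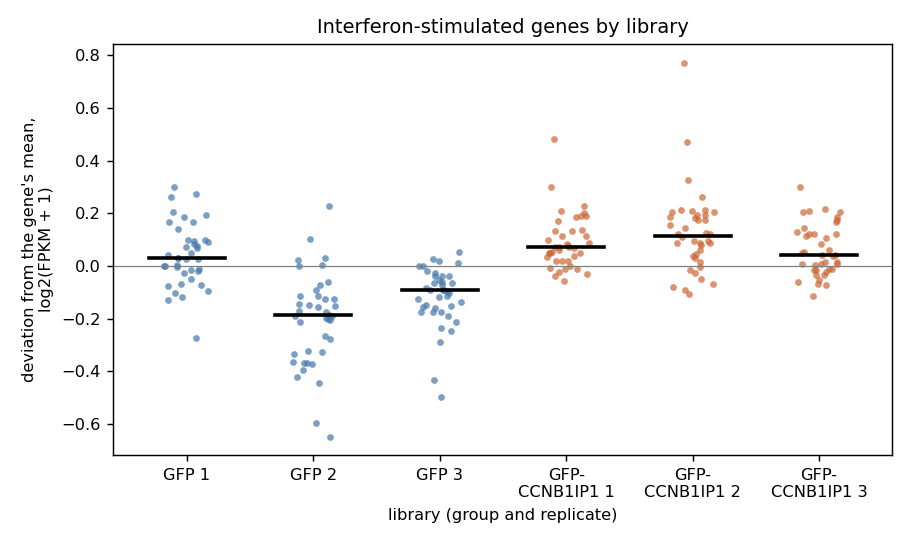
Deviation of each of the 40 tested members (points) from its own mean over the 6 libraries, in log2(FPKM + 1), by library; black lines are medians, blue is GFP and orange is GFP-CCNB1IP1. GFP replicate 2 has the lowest median, -0.19, and GFP replicate 1, at 0.03, lies close to GFP-CCNB1IP1 replicate 3, at 0.04.

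Interferon genes themselves were near 0. Of 20 interferon genes of types I, II and III, 0 reached the filter, and the highest mean was that of Ifnb1, the interferon beta gene, at 0.0257 FPKM. Ifnb1 had 0.0790 FPKM in GFP replicate 1, 0.0751 in GFP-CCNB1IP1 replicate 3, and was listed at 0 elsewhere. Ifng, the interferon gamma gene, was listed at 0 in all 6.

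The receptor chain gene Ifnar1 had 13.5, 14.6 and 13.97 FPKM with GFP and 14.4, 15.6 and 15.2 with GFP-CCNB1IP1 (limma, log2 fold change 0.10, SE 0.063, adjusted p = 0.592). Ifnar2, its partner chain, had 20.7, 22.6 and 20.2 FPKM and then 25.3, 22.03 and 21.4. In both, the groups overlapped. Of 17 receptor and proximal signalling genes tested, 12 were higher and 5 lower, 0 passed, 0 had an unadjusted p under 0.05, and the median log2 fold change was 0.04. Without GFP-CCNB1IP1 replicate 2, 11 were higher and 6 lower, with a median of 0.06.

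A list of genes of nucleic acid sensing upstream of interferon held sensors, adaptors and kinases, and also genes such as Trex1, Samhd1 and Nlrx1 that degrade nucleic acid or restrain sensing. Of its 18 genes tested, 7 were higher and 11 lower, 0 passed, and the median was -0.01. Without GFP-CCNB1IP1 replicate 2 the split turned to 11 higher and 7 lower, with a median of 0.02. Traf3, an adaptor between sensors and the kinase TBK1, was the 1 gene of the 18 at an unadjusted p under 0.05, and 1 of 18 is close to the 5.77% of all genes that were lower at that level. It had 8.87, 9.66 and 8.38 FPKM with GFP and 7.87, 8.17 and 6.91 with GFP-CCNB1IP1, with a log2 fold change of -0.21 (limma, SE 0.087, adjusted p = 0.430). Its groups did not overlap.

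**Figure D4:**
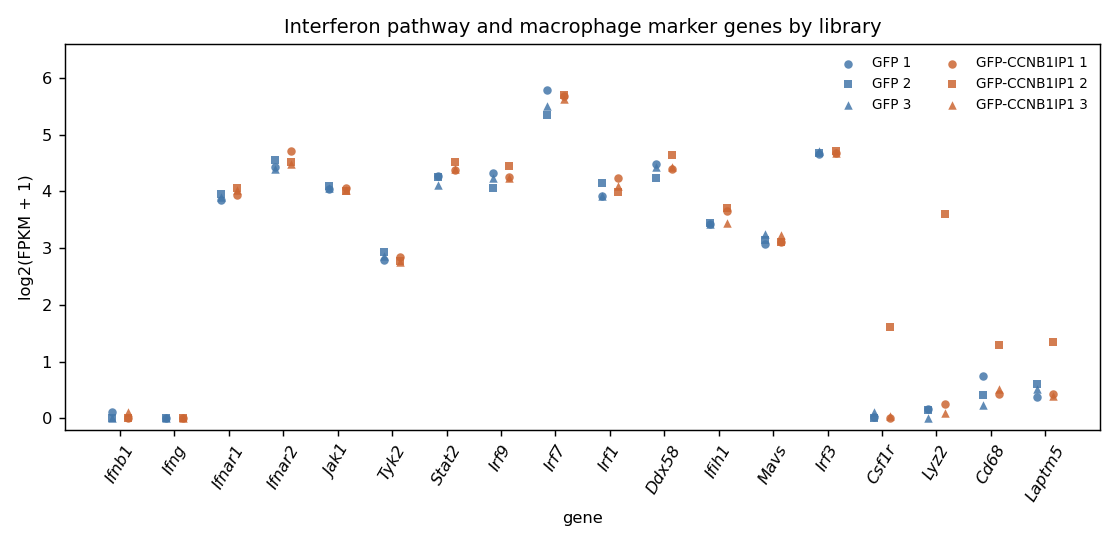
Level of interferon, receptor, signalling and sensor genes and of 4 leukocyte and myeloid markers, as log2(FPKM + 1), in each library (blue GFP, orange GFP-CCNB1IP1; circle, square and triangle for replicates 1, 2 and 3). Ifnb1 and Ifng lie at or near 0, the signalling genes overlap between groups apart from Stat2 and Ifih1, and the orange square, GFP-CCNB1IP1 replicate 2, stands alone for Csf1r and Lyz2; Ifng, Jak1, Tyk2, Mavs, Irf3 and the markers were chosen for this plot after their values were seen.

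Among the 4 transcription factor members, all 4 had a positive log2 fold change, and Stat2 was the 1 without overlap. Stat2 (ENSMUSG00000040033.17, chromosome 10, 128106428 to 128128718; the genome build was not given in the sources at hand) had 18.3, 18.2 and 16.2 FPKM with GFP and 19.7, 21.8 and 20.2 with GFP-CCNB1IP1. Its log2 fold change was 0.22 (SE 0.070, adjusted p = 0.323), with every GFP-CCNB1IP1 library above every GFP library. Irf9, the DNA-binding subunit of ISGF3, had 19.1, 15.6 and 17.9 FPKM and then 17.998, 20.8 and 17.9, with overlap. The Irf9 locus overlaps that of Rnf31, which had a mean of 6.72 FPKM, so reads may not be separable.

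Irf7, the master regulator of interferon alpha genes and itself interferon-inducible, was the most abundant of these factors. It had 54.6, 39.7 and 44.5 FPKM with GFP and 50.4, 51.2 and 48.4 with GFP-CCNB1IP1. GFP replicate 1 held its highest value and GFP replicate 2 its lowest, so the GFP libraries spanned the whole of the other group. The Irf7 locus overlaps that of Phrf1, which had a mean of 19.7 FPKM, so reads may not be separable. Irf1, a factor induced strongly by interferon gamma, had 14.2, 16.8 and 14.1 FPKM and then 17.9, 14.8 and 16.1, and did not share the low value in GFP replicate 2.

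The 3 cytosolic sensors of double-stranded RNA had positive log2 fold changes of 0.03 to 0.18. Ifih1, the gene of MDA5, which binds long double-stranded RNA, had 9.69, 9.93 and 9.79 FPKM with GFP and 11.6, 12.1 and 9.95 with GFP-CCNB1IP1. The groups did not overlap, but GFP-CCNB1IP1 replicate 3 was just above the GFP libraries (log2 fold change 0.18, SE 0.082, adjusted p = 0.470). Ddx58, the gene of RIG-I, which binds RNA with triphosphate ends, had means of 19.9 ± 1.85 and 21.5 ± 2.08 FPKM (SD, n = 3). Dhx58, the gene of LGP2, a sensor without signalling domains that modulates the other two, had 31.6 ± 1.11 and 32.3 ± 2.18. The groups overlapped for Ddx58 and Dhx58.

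Rsad2 was the member with the smallest p-value. It encodes viperin, a radical SAM enzyme that makes a chain-terminating nucleotide from CTP, and its neighbour Cmpk2 encodes a mitochondrial nucleotide kinase. Rsad2 (ENSMUSG00000020641.17, chromosome 12, 26492745 to 26506451) had 15.5, 16.9 and 15.3 FPKM with GFP and 23.5, 21.99 and 21.97 with GFP-CCNB1IP1. The groups were well apart, at 15.9 ± 0.868 and 22.5 ± 0.881 FPKM (SD, n = 3), and GFP replicate 2 was here the highest GFP library.

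The log2 fold change of Rsad2 was 0.48 (SE 0.063, unadjusted p = 7.064e-05), and its adjusted p of 0.176 missed the threshold. Over the 16 alternative settings the adjusted p ranged from 0.101 to 0.445, and the log2 fold change lay between 0.40 and 0.52. Without GFP-CCNB1IP1 replicate 2 it was 0.49. Cmpk2, which lies 12.8 kb from Rsad2 on chromosome 12, had 6.41, 5.59 and 5.67 FPKM and then 6.86, 7.11 and 7.07, also without overlap, with a log2 fold change of 0.22 (limma, SE 0.078, adjusted p = 0.357).

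**Figure D5:**
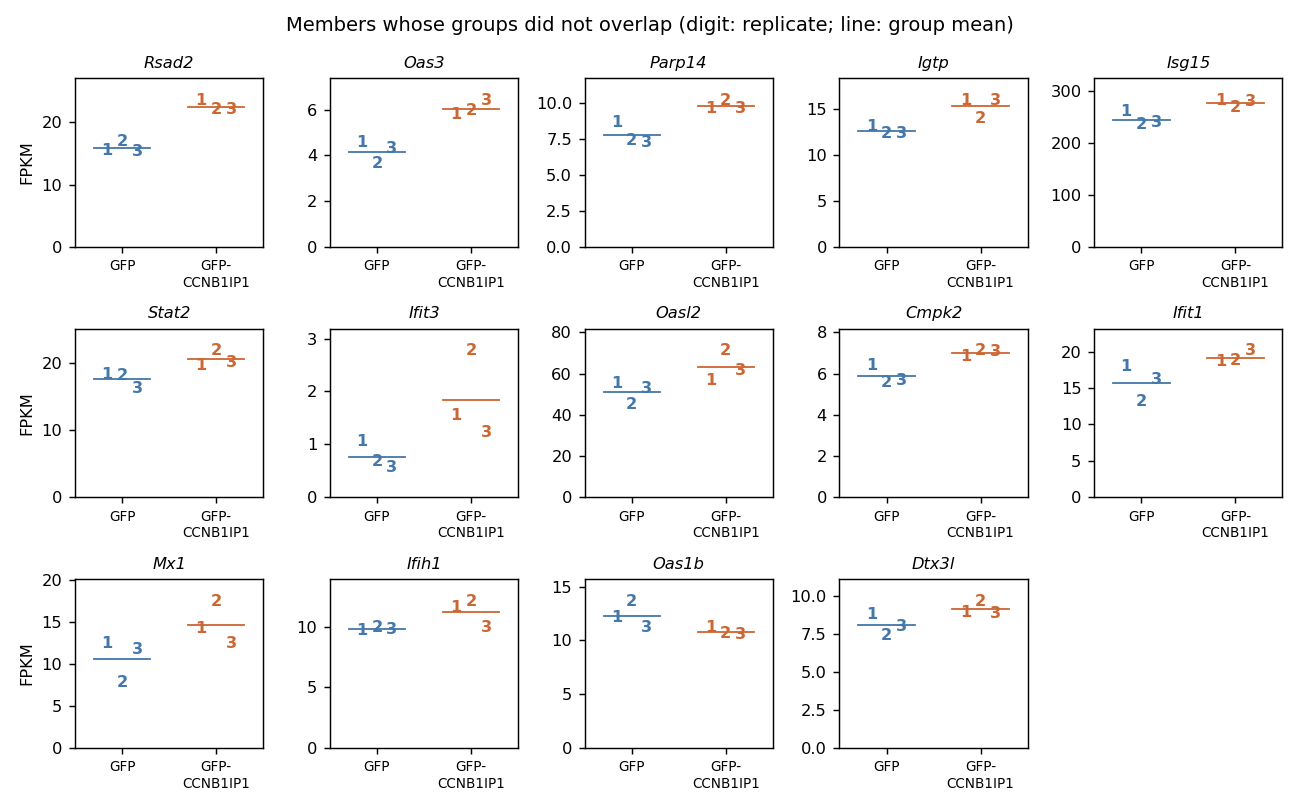
FPKM in each library for the 14 members whose groups did not overlap, ordered by unadjusted p; digits are replicate numbers, lines are group means, and every axis starts at 0. Rsad2 and Oas3 show the widest gaps relative to their spread, and Oas1b is the 1 member lower in GFP-CCNB1IP1. Most of the members shown have their highest value in GFP-CCNB1IP1 replicate 2, namely Ifit3, Mx1, Oasl2, Stat2, Ifih1, Parp14, Dtx3l and Cmpk2.

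None of the 6 oligoadenylate synthetase genes passed; 4 had a positive log2 fold change and 2 a negative one, and differences between members were not tested. These enzymes make a short adenylate chain that activates the nuclease RNase L, though mouse Oas1b and Oasl1 lack this activity. Oas3 (ENSMUSG00000032661.10, chromosome 5, 120891163 to 120915726) had 4.55, 3.65 and 4.28 FPKM with GFP and 5.78, 5.97 and 6.40 with GFP-CCNB1IP1. Every GFP-CCNB1IP1 library was above every GFP library, with a log2 fold change of 0.45 (SE 0.094, unadjusted p = 0.00144, adjusted p = 0.210).

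Oas1b lies on the same chromosome 35.0 kb from Oas3. It is the gene at the flavivirus resistance locus of mice, and it had 12.1, 13.6 and 11.2 FPKM with GFP and 11.2, 10.6 and 10.5 with GFP-CCNB1IP1. The groups did not overlap, though GFP replicate 3 and GFP-CCNB1IP1 replicate 1 nearly met (log2 fold change -0.17, SE 0.081, adjusted p = 0.475). Oas1a, with 17.7 ± 3.04 and 17.3 ± 0.903 FPKM (SD, n = 3), and Oas2, with 11.2 ± 2.05 and 12.0 ± 0.4996, overlapped between groups. Oas1a and Oas1b resemble each other and other Oas1 copies, so the division of reads among these copies is uncertain.

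The pair Oasl1 and Oasl2, 11003 bases apart elsewhere on chromosome 5, had higher means in GFP-CCNB1IP1. Oasl2, the most abundant family member, had 55.4, 44.8 and 52.9 FPKM with GFP and 56.5, 71.0 and 61.5 with GFP-CCNB1IP1. These did not overlap (log2 fold change 0.30, SE 0.103, adjusted p = 0.352), and the highest value came from GFP-CCNB1IP1 replicate 2, without which the log2 fold change was 0.21. Oasl1, a repressor of Irf7 translation, had 28.8, 19.8 and 25.6 FPKM and then 29.5, 28.5 and 30.3, where GFP replicate 1 was within the range of the other group.

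The IFIT genes encode proteins that bind foreign RNA ends and hold back its translation. They lie together on chromosome 19, where Ifit2, Ifit3, Ifit3b and Ifit1 follow each other with gaps of 7.1, 19.2 and 27.5 kb. Ifit1 was by far the most abundant, with 17.9, 13.2 and 16.2 FPKM with GFP and 18.6, 18.8 and 20.1 with GFP-CCNB1IP1. Its groups did not overlap, and its log2 fold change was 0.28 (SE 0.104, adjusted p = 0.387).

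Ifit3 (ENSMUSG00000074896.4, chromosome 19, 34560931 to 34566131) had the largest log2 fold change of the 40 members, from low levels. Its GFP mean was 0.767 FPKM, and it reached the filter of 1 FPKM only through the GFP-CCNB1IP1 libraries, so this rank depends on them. It had 1.06, 0.677 and 0.562 FPKM with GFP and 1.55, 2.77 and 1.22 with GFP-CCNB1IP1, without overlap. The log2 fold change was 0.66 (SE 0.215, adjusted p = 0.325), and 0.44 without GFP-CCNB1IP1 replicate 2, its highest library. The deposited intervals imply between 18.9 and 72.3 fragments behind these values. Ifit2 had 1.62, 1.19 and 1.46 FPKM and then 1.56, 2.19 and 2.07, with overlap. Ifit3b, a near copy of Ifit3 that shares reads with it, was below the filter at 0.103 to 0.476 FPKM, and how reads were split of this pair is uncertain.

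Mx1 and Mx2 encode dynamin-like GTPases that trap viral nucleoproteins. Mx1 (ENSMUSG00000000386.17, chromosome 16, 97248235 to 97264107) had 12.4, 7.80 and 11.7 FPKM with GFP and 14.2, 17.5 and 12.4 with GFP-CCNB1IP1. GFP replicate 1 and GFP-CCNB1IP1 replicate 3 were almost level, at 12.37 and 12.39 FPKM, so the separation rests on a small margin. Its log2 fold change was 0.44 (SE 0.176, adjusted p = 0.405), 0.26 without GFP replicate 2 and 0.32 with GFP-CCNB1IP1 replicate 2 left out. Mx2 had 20.1 ± 2.01 and 22.2 ± 1.49 FPKM (SD, n = 3), with overlap.

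The ISG15 system attaches a ubiquitin-like protein to targets. Isg15 itself was the most abundant of the 42 members (ENSMUSG00000035692.8, chromosome 4, 156283912 to 156285253). It had 259, 235 and 239 FPKM with GFP and 281, 267 and 279.5 with GFP-CCNB1IP1, without overlap, and a log2 fold change of 0.17 (limma, SE 0.051, adjusted p = 0.294). Usp18, the protease that removes ISG15 and also dampens signalling at IFNAR2, had 36.7, 31.4 and 30.3 FPKM and then 36.0, 36.5 and 35.7. For Usp18, GFP replicate 1 was above all 3 GFP-CCNB1IP1 libraries and the other 2 GFP libraries were below them.

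The ligase genes of this system did not separate. Herc6, the main ISG15 ligase of mice, had 21.7 ± 0.869 and 21.8 ± 1.04 FPKM, and its log2 difference of 0.003 (SE 0.061) turned negative in 4 of the 16 settings. Trim25, a ligase that also acts on RIG-I, had 32.6 ± 1.43 and 34.3 ± 2.36 FPKM.

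Parp9, Parp14 and Dtx3l lie within 1 stretch of chromosome 16, and encode ADP-ribosyltransferases and the ubiquitin ligase that pairs with PARP9. Parp14 (ENSMUSG00000034422.15, 35653244 to 35691914) had 8.61, 7.37 and 7.25 FPKM with GFP and 9.63, 10.2 and 9.62 with GFP-CCNB1IP1. These were apart, with a log2 fold change of 0.31 (SE 0.081, unadjusted p = 0.00542, adjusted p = 0.272). Dtx3l had 8.73, 7.39 and 7.99 FPKM and then 8.87, 9.62 and 8.79, apart by a narrow margin between GFP replicate 1 and GFP-CCNB1IP1 replicate 3. Parp9, with 14.3 ± 1.66 and 15.9 ± 0.445 FPKM, overlapped between groups, and since the Parp9 and Dtx3l loci share bases and strand was not stated, reads of the shared stretch may not be separable.

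The immunity-related GTPases are membrane-bound proteins best known for defence against parasites that live in vacuoles of rodent cells. Igtp, also called Irgm3, had 13.0, 12.3 and 12.2 FPKM with GFP and 15.9, 13.97 and 15.8 with GFP-CCNB1IP1. The groups were apart (log2 fold change 0.26, SE 0.071, unadjusted p = 0.00645, adjusted p = 0.276), and without GFP-CCNB1IP1 replicate 2, its lowest library in that group, the value was 0.32. The Igtp locus overlaps that of Irgm2, which had a mean of 14.8 FPKM, so reads may not be separable. Irgm1 had 22.1, 18.2 and 18.1 FPKM and then 21.4, 21.95 and 22.4, where GFP replicate 1 lay among the other group.

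Among effectors that bind nucleic acid, all 4 genes had a positive log2 fold change and all 4 overlapped between groups. Zbp1, a sensor of Z-form nucleic acid that can start necroptosis, had 8.40, 4.72 and 4.76 FPKM with GFP and 9.86, 7.21 and 7.01 with GFP-CCNB1IP1. Replicate 1 was the highest library in each group, and the log2 fold change was 0.40 (SE 0.208, adjusted p = 0.517). Eif2ak2, the gene of the kinase PKR that stops translation on double-stranded RNA, had 22.1 ± 1.44 and 23.7 ± 1.45 FPKM. Adar, the gene of an RNA-editing adenosine deaminase, had 33.1 ± 1.54 and 35.7 ± 3.63, and the exonuclease gene Isg20 had 17.5 ± 0.812 and 19.1 ± 1.05. The Adar locus overlaps that of Chrnb2, which had a mean of 13.7 FPKM, so reads may not be separable.

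Of the 7 remaining effectors tested, 5 had a positive log2 fold change and 2 a negative one. Ifi27, the gene of a small hydrophobic membrane protein, was the second most abundant member and had 240.0, 236 and 245 FPKM with GFP and 235, 221.5 and 238 with GFP-CCNB1IP1 (log2 fold change -0.05, SE 0.045, adjusted p = 0.694). Bst2, the gene of tetherin, which holds budding virus at the membrane, had 149, 114 and 133 FPKM and then 132, 126 and 131. Bst2 thus spread widely among the GFP libraries and little among the others, and its log2 fold change of -0.01 turned positive in 2 settings. Ifi35 had 54.1, 47.3 and 48.0 FPKM and then 51.9, 53.5 and 53.1, with overlap.

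Ifi44 and Xaf1 were also graded within the GFP group. Ifi44, a gene induced strongly by type I interferon, had 10.7, 5.05 and 6.99 FPKM with GFP and 9.92, 9.71 and 10.03 with GFP-CCNB1IP1. Its SD was 2.86 FPKM in the first group and 0.163 in the second, and the log2 fold change of 0.40 became 0.65 without GFP replicate 1 and 0.17 without GFP replicate 2. Xaf1, a pro-apoptotic antagonist of the inhibitor XIAP, had 51.1, 34.9 and 40.2 FPKM and then 53.4, 51.7 and 44.4. Rtp4, with 15.2 ± 2.64 and 17.1 ± 1.12 FPKM, and Samd9l, a translation inhibitor gene with 4.13 ± 0.998 and 4.59 ± 0.2497, followed the same order of GFP libraries, replicate 1 highest and replicate 2 lowest. Epsti1 was close to 0, at no more than 0.139 FPKM in any library.

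Interferon-stimulated genes outside the 42 were read from a second list of 94 symbols, of which 92 matched and 56 were tested. Of those 56, 41 were higher and 15 lower, and the median log2 fold change was 0.11. None passed. At an unadjusted p under 0.05, 11 were higher (19.6%) and 0 lower, against 5.59% and 5.77% of all genes. Without overlap, 14 were higher (25%) and 0 lower, against 8.7% and 8.9%. Without GFP-CCNB1IP1 replicate 2, 38 of the 56 were higher, 12 of them at an unadjusted p under 0.05, against 5.66% of all genes. Of the 56, 22 were then higher without overlap, against 15.7% of all genes, and the median was 0.11. The libraries kept a similar order: the median deviation was 0.004, -0.10 and -0.09 for the GFP libraries and 0.09, 0.04 and 0.04 for the GFP-CCNB1IP1 libraries, each in the order of their numbers.

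The smallest p-values of this second list belonged to Bcl3, Sp110, Phf11d, Ifi27l2a, Ccl5 and Rbm43, all higher in GFP-CCNB1IP1 without overlap. Bcl3, a nuclear cofactor of NF-kB, had 2.52, 3.07 and 1.92 FPKM with GFP and 4.14, 4.35 and 3.97 with GFP-CCNB1IP1 (log2 fold change 0.57, SE 0.131, adjusted p = 0.235). Ccl5, a chemokine gene that draws T cells and monocytes, had 56.6, 70.2 and 64.1 FPKM and then 76.9, 72.5 and 78.4. In Ccl5 and Bcl3, GFP replicate 2 was the highest GFP library, unlike in most of the 42 members. Sp110, a nuclear body gene, had means of 1.18 and 2.25 FPKM, Phf11d had 3.31 and 4.80, Ifi27l2a had 3.91 and 6.09, and Rbm43 had 7.23 and 8.61.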

How the data were processed

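Per the submitters' processing notes, HISAT2 and Cufflinks were used; their versions, the genome build, annotation and strandedness were not given in the sources at hand. The authors deposited FPKM per gene with interval bounds, 1 table per library, per the file headers. Rows sharing an identifier were summed, giving 53492 genes. Genes with a mean of at least 1 FPKM over the 6 libraries (13231) were tested on log2(FPKM + 1) in limma 3.58.1 (R 4.3.3; trend on, replicates unblocked), with Benjamini-Hochberg adjustment over all of them. An exact permutation test of 3 against 3 cannot go below p = 0.1. Fragments were estimated as the square of FPKM over its standard error, with the upper bound 2 standard errors above; read totals are not given. Locus starts were taken as 0-based and are printed 1-based.

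Members and lists were chosen with earlier results of these data known. Values per library are given for members with an unadjusted p under 0.1, without overlap, among the 5 most abundant, or among the 4 transcription factors; of the pathway lists, up to 6 genes each with the smallest p under 0.05, with Ifnar1, Ifnar2 and Ifnb1 always; 1 further pathway gene and 2 marker genes are not reported here by name. On simulated data for this comparison (13231 genes, 5 draws), 14.0% of changes of 0.25 on the log2 scale were recovered, 64.4% of 0.5 and 94.8% of 1. These changes were placed only in genes above about 5 FPKM, and some were larger than that of any member. Noise followed each gene's own spread and was independent between genes, unlike in the members. Recovery may therefore be lower for the members than these shares. Alternatives were other pseudocounts, filters and scalings, a replicate block, other limma priors, and each library left out.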

Additional observations from a re-analysis of the deposited data

How the results depend on the processing

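Of 16 alternatives, 0 brought any of the 40 members past the threshold; the smallest adjusted p was 0.101, for Rsad2 with quantile normalization. Of the 40, 32 were higher and 2 lower (Oas1b and Ifi27) in every setting that tested them. The sign turned for Herc6 with quantile normalization (-0.0008) and TPM (-0.0084), and for 6 members when 1 library was left out: log2 fold changes then ranged from -0.0332 to 0.0304 for Herc6, -0.123 to 0.1024 for Oas1a, -0.1169 to 0.0782 for Bst2, -0.032 to 0.2139 for Oas2, -0.005 to 0.2793 for Samd9l and -0.0209 to 0.0691 for Dhx58. With 1 library left out, members higher at an unadjusted p under 0.05 numbered 6 to 23 (11 with all libraries), where 3.91% to 6.56% of all genes were (5.59%), members higher without overlap 14 to 26 (13 with all), where 12.3% to 16.4% of all genes were (8.7%), and genes passing overall 0 to 4; fewer libraries were tested, and other causes were not tested. A mean FPKM of at least 5, which removes Ifit2, Ifit3 and Samd9l, left 37 members, 33 of them higher, with a median of 0.15. The 1 gene passing overall became 0 with a pseudocount of 5, no filter, no mean-variance trend or the replicate block, and 2 with TPM; the cause was not tested. Pairing by replicate number was not seen in the values. Correlations of deviations across genes were 0.02, -0.009 and -0.01 for numbers 1 to 3, and not every library correlated best with its own number. Such correlations cannot settle whether libraries of equal number shared a culture or batch, which the labels do not say. With the replicate block, 13 members were higher at an unadjusted p under 0.05, against 5.19% of all genes, and 0 passed. Depth limits Ifit3, Ifit2, Ifit3b and Epsti1 most.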
